A study of Homo sapiens with 6 samples.

Results

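Cells carry surface receptors that can order their own death, and the genes described here encode those receptors, the TRAIL ligand and the complex that assembles beneath the receptors. The 10 genes were FAS, TNFRSF10A, TNFRSF10B, TNFRSF10C, TNFRSF10D, TNFSF10, FADD, CASP8, CASP10 and CFLAR, chosen by gene symbol. For each gene the probe set annotated to that gene alone, that was brightest on average, was used. By this rule 9 of the 10 had a value, among 18417 genes measured in all. TNFRSF10C was the gene without one, because its probe set is annotated to LOC254896 as well.

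The arrays compared 2 kinds of stable A549 cells, a human lung adenocarcinoma line. Both kinds went without serum overnight and were then exposed for 48 h to VP-16, which is etoposide, a poison of topoisomerase II that breaks DNA. One group was labelled H2AX knockdown (3 arrays, cell code P1) and the other control (3 arrays, cell code C). H2AX is the histone variant phosphorylated around DNA breaks. Each array of a group came from an independent experiment, per the design text. The labels give neither the means of knockdown nor the number of stable lines, and if each group was a single line, p-values cover the spread between experiments alone. No untreated cells were analysed here, so the comparison is between 2 groups under the drug. It asks how the genes of the receptor pathway of apoptosis differ in expression between these cells.

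When a death receptor such as Fas or a TRAIL receptor binds its ligand, the adaptor FADD joins the receptor's tail through a death domain. FADD then recruits caspase-8 and caspase-10 through death effector domains, and the clustered caspases cleave and activate each other. The CFLAR protein, also called c-FLIP, has the same domains and a caspase-like part that lacks catalytic activity, and it takes a place in the complex and limits this activation.

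CFLAR is a known target of the transcription factor NF-kB, and 1 of its 4 annotated start windows is shown because this gene had the largest difference of the 9. It is the window with a match, and the other 3 held none. Each window runs from 250 bases before to 50 bases after an annotated start (RefSeq, GRCh38.p14), and the capitals mark the match to the kappa-B consensus, the sequence that NF-kB binds. The match begins 97 bases before the start.
CFLAR, chr2:201118466-201118765, plus strand: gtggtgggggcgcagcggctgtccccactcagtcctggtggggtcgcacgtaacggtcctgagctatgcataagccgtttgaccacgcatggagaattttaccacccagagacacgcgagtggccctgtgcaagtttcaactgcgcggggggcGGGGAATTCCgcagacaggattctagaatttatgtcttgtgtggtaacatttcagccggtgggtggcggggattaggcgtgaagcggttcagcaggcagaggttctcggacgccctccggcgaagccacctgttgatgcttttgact
FAS, the receptor gene with the largest difference, also held a match, in 1 of its 3 windows. It begins 157 bases before that start and is shown with 10 bases on either side.
FAS, chr10:88991264.0-88991293.0, plus strand: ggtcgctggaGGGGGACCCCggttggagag
The search covered 12 windows of 5 genes (CFLAR, CASP8, FAS, FADD and TNFSF10) on both strands, and 2 windows held a match, against 5.91% of 35116 windows of the same length over all genes. The AP-1 motif TGANTCA, which matches both strands at once, occurred in 5 of the 12 windows, in CFLAR, CASP8, FAS and FADD, against 7.71% of all windows. It did not overlap a kappa-B match. A match is a string of letters and not a measured site. Windows of CASP10, TNFRSF10A, TNFRSF10B, TNFRSF10C and TNFRSF10D were not searched, so the counts leave these members out. Several of the 12 windows belong to the same gene, and 2 windows of FAS overlap. The counts are therefore not like for like with the percentages over all windows, and no enrichment was tested.

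CFLAR, CASP10 and CASP8 lie next to each other among the protein-coding genes of chromosome 2. TNFRSF10B, TNFRSF10C, TNFRSF10D and TNFRSF10A lie likewise in a row on chromosome 8.

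The probe set of H2AX gave log2 signals of 5.28, 5.17 and 5.49 in the arrays labelled knockdown and 5.11, 5.27 and 5.26 in the control arrays. The groups overlapped, with a difference of 0.10 (95% interval −0.25 to 0.45, limma adjusted p = 0.823). A 2-sided exact permutation test of the 6 arrays gave p = 0.4, and no split of 3 against 3 can give less than 0.1. The labelled knockdown is therefore not seen at this probe set, and the directions given for other genes go by the labels of the arrays. The arrays were not alike in spread: the SD over all probe sets was lowest in knockdown-labelled replicate 1 (1.60) and highest in control replicate 1 (1.86). Bright genes read lower in the arrays labelled knockdown, by a median of −0.25 in the brightest of 5 equal bins, while the dimmest bin had a median of 0.15. Keratins KRT7, KRT8 and KRT18 and A549 enzymes such as NQO1 and ALDH1A1 were above percentile 98.4 of mean signal. The other epithelial markers CDH1, KRT19 and EPCAM lay at percentiles 87.6, 65.8 and 17.2. Alveolar markers ran from SFTPB at 19.6 to ABCA3 at 73.2, with SFTPC at 35.0, and the leukocyte marker PTPRC lay at 7.97. The mean signal per array of 5 A549 enzyme genes ran from 8.21 to 8.58 in the arrays labelled knockdown and from 8.59 to 9.01 in controls. ALDH1A1 was at −0.61 and AKR1C1 at −0.58 (limma adjusted p = 0.273 and 0.305), AKR1B10 at −0.26, NQO1 at −0.25 and ALDH3A1 at −0.06. Their median of −0.26 was close to the −0.25 of the brightest bin, where all 5 lay. Of the blood and immune markers CD68, which encodes a lysosomal protein, was bright, at percentile 99.4. Of 5 fibroblast markers, the mean signal per array ran from 3.26 to 3.76 in the arrays labelled knockdown and from 3.05 to 3.26 in controls, with LUM and DCN the dimmest. COL1A1 and COL1A2 were the brightest of these, at percentiles 82.0 and 57.1. Their differences were 0.04 and 0.39, against 0.47 for LUM, 0.46 for DCN and 0.34 for PDGFRB. The part of either marker group in the results below was not tested.

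CFLAR and the dim CASP10, an inhibitor and an initiator caspase of the complex, were lower in all 3 knockdown-labelled arrays than in any control array. Neither difference passed the threshold over all genes (limma, Benjamini-Hochberg adjusted p under 0.05), and of the 9 genes 0 passed, against 0.0271% of all genes that were lower past it and 0.00543% that were higher. At an unadjusted p under 0.05, 4 of the 9 were lower (CFLAR, CASP10, FAS and TNFRSF10A) and 0 higher, against 8.38% lower and 3.78% higher over all genes. The 9 had a median log2 difference of −0.31, with 7 below 0, where all genes had a median of −0.01 and 51.5% below 0. However, 7 of the 9 lay in the brighter bins, where genes of like brightness had medians from −0.32 to −0.15. The median of the 9 was −0.069 after quantile normalization and −0.052 after cyclic loess, and under either setting 2 of the 9, CFLAR and CASP10, were lower at an unadjusted p under 0.05. FADD and CASP8, the adaptor and the main caspase, had differences close to 0. In RNA from whole cultures, fewer cells of a kind and less RNA per cell cannot be told apart.

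**Figure D1:**
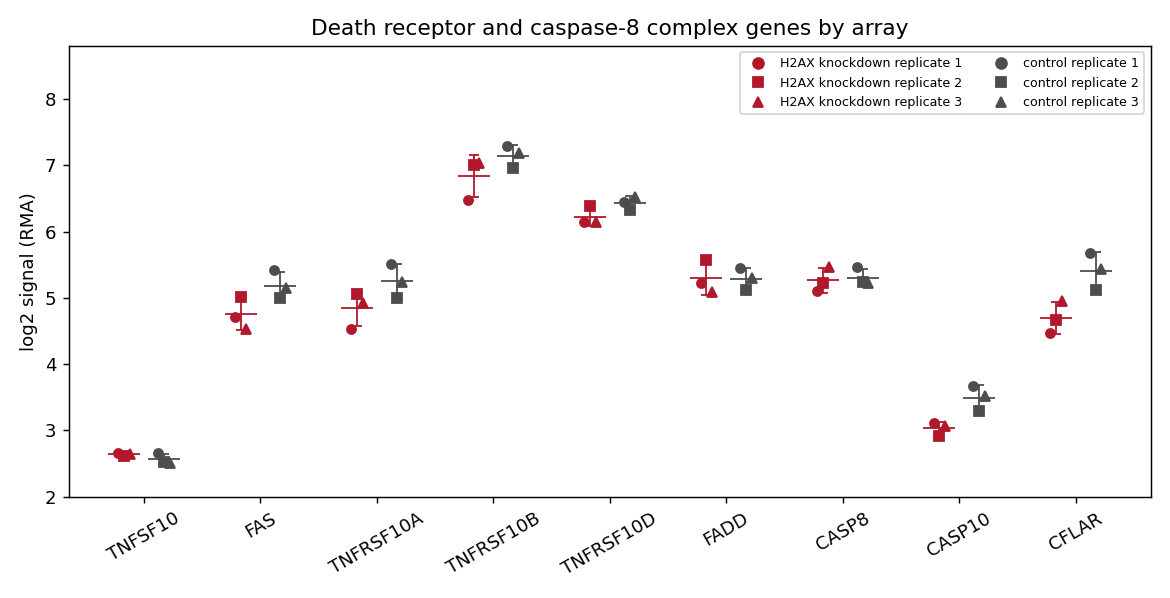
Log2 signal (vertical axis) of the 9 measured genes (horizontal axis) in each array, knockdown-labelled in red at the left of each pair and control in grey, with the mean and SD over 3 arrays. The red and grey points are apart for CASP10 and CFLAR and overlap for the other 7 genes, and levels of different genes are not comparable.

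CFLAR gave 4.47, 4.67 and 4.95 log2 units in knockdown-labelled replicates 1, 2 and 3, against 5.68, 5.12 and 5.43 in control replicates 1, 2 and 3. The highest knockdown-labelled array was below the lowest control array. The difference was −0.71 ± 0.19 (SE), with means of 4.70 ± 0.24 in the arrays labelled knockdown and 5.41 ± 0.28 in controls (SD, n = 3 each). On the linear scale this was 0.61 of the control signal (95% interval of the log2 difference −1.12 to −0.30, limma adjusted p = 0.273). Genes of like brightness, in the same of 50 bins by mean signal, had a median difference of −0.16. Such non-overlap downwards was found for 2 of the 9 genes, against 9.82% of all genes, and upwards for 0 of the 9, against 7.17%.

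CFLAR has another probe set, which lists none of the first one's transcripts. It was dimmer, with 1.88, 1.51 and 2.13 in the arrays labelled knockdown and 2.68, 1.95 and 2.52 in controls. The groups overlapped there, because control replicate 2 was below knockdown-labelled replicate 3. The difference of the means was −0.54, the same direction as in the brighter probe set. However, its means of 1.84 (knockdown-labelled) and 2.38 (control) were about as low as the signal of PTPRC (2.13, percentile 7.97). Signals this low do not show whether its transcripts were expressed, and no median of like brightness was taken for it. With both probe sets averaged, the difference of CFLAR was −0.63 (limma adjusted p = 0.293). The arrays cannot assign these signals to the long or short CFLAR proteins.

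CASP10, the initiator caspase next to CASP8 on the chromosome, gave 3.11, 2.92 and 3.07 in the arrays labelled knockdown and 3.67, 3.29 and 3.52 in controls. All 3 knockdown-labelled arrays were again below all 3 controls. The difference was −0.46 ± 0.17 (SE), or 0.73 of the control signal (95% interval −0.81 to −0.10, limma adjusted p = 0.333). The probe set was dim, at percentile 36.1 of mean signal, where genes of like brightness had a median difference of 0.06, of opposite sign. RMA compresses differences at dim signals, and these values do not show whether CASP10 was expressed.

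CASP8, the apical caspase of both Fas and TRAIL signalling, gave 5.10, 5.22 and 5.47 in the arrays labelled knockdown and 5.46, 5.23 and 5.23 in controls. The values interleaved, and replicate 3 of the arrays labelled knockdown was the highest of all 6. The difference was −0.04 (95% interval −0.40 to 0.32, limma adjusted p = 0.932). On the linear scale the interval ran from −24.3% to 24.6% of the control signal.

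FADD, the adaptor that links receptors to the caspases, gave 5.23, 5.58 and 5.09 in the arrays labelled knockdown and 5.45, 5.11 and 5.29 in controls. The knockdown-labelled arrays held both the highest and the lowest value. The difference was 0.01 (95% interval −0.37 to 0.40, limma adjusted p = 0.983). Genes as bright as FADD and CASP8 had a median difference of −0.20.

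**Figure D2:**
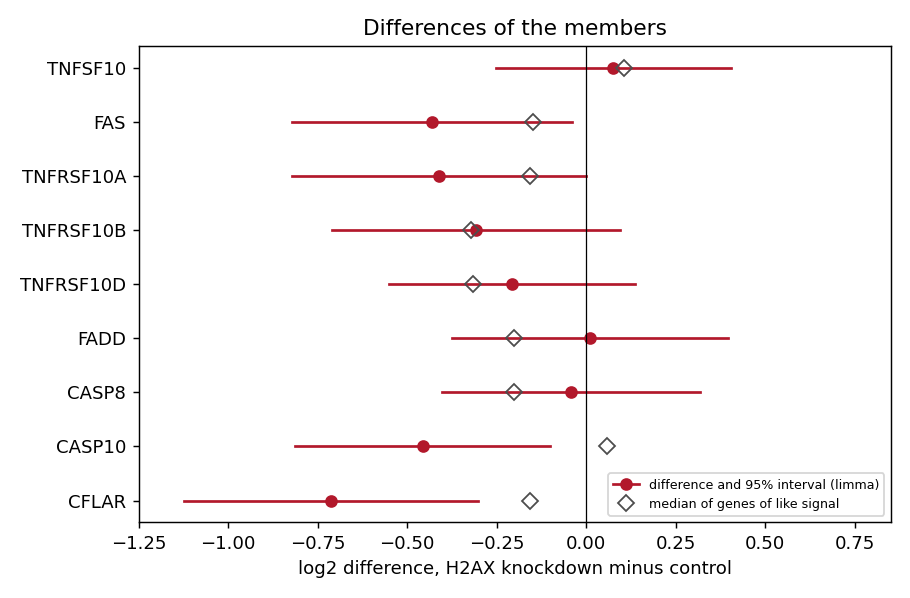
Log2 difference, knockdown-labelled minus control (horizontal axis), of each gene (vertical axis), with its 95% interval from limma as a line and the median of genes of like signal as a diamond. The intervals of CFLAR (−1.12 to −0.30) and CASP10 (−0.81 to −0.10) exclude the diamond of their own bin, that of CFLAR at −0.16 and that of CASP10 at 0.06. The intervals are not adjusted for the number of genes, and neither gene passed the threshold over all genes.

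Within each array CFLAR was also set against CASP8 and FADD, its partners in the complex. This removes a shift only where it is equal for both probe sets. The shift seen here differed with brightness. Genes as bright as CFLAR had a median difference of −0.16, and those as bright as the partners −0.20. These partners had the smallest differences of the measured genes. TNFRSF10A and FAS, nearer to CFLAR in mean signal, had differences of −0.41 and −0.43 and were not used as partners. CFLAR minus CASP8 was −0.63, −0.55 and −0.52 in knockdown-labelled replicates 1, 2 and 3, against 0.22, −0.12 and 0.21 in control replicates 1, 2 and 3. The means were −0.57 ± 0.06 in the arrays labelled knockdown and 0.10 ± 0.19 in controls (SD, n = 3 each), and the groups did not overlap. CFLAR minus FADD was −0.76, −0.90 and −0.14 in the arrays labelled knockdown and 0.22, 0.00 and 0.14 in controls. These groups were apart too, but replicate 3 came close to the controls. CASP10 minus CASP8, a pair chosen after the values were seen, was −1.99, −2.30 and −2.40 in the arrays labelled knockdown and −1.79, −1.95 and −1.71 in controls. Genes as bright as CASP10 and CASP8 had median differences of 0.06 and −0.20, so the shift with brightness does not drop out of that pair. The contrasts show unequal change between probe sets and are not ratios of transcripts.

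**Figure D3:**
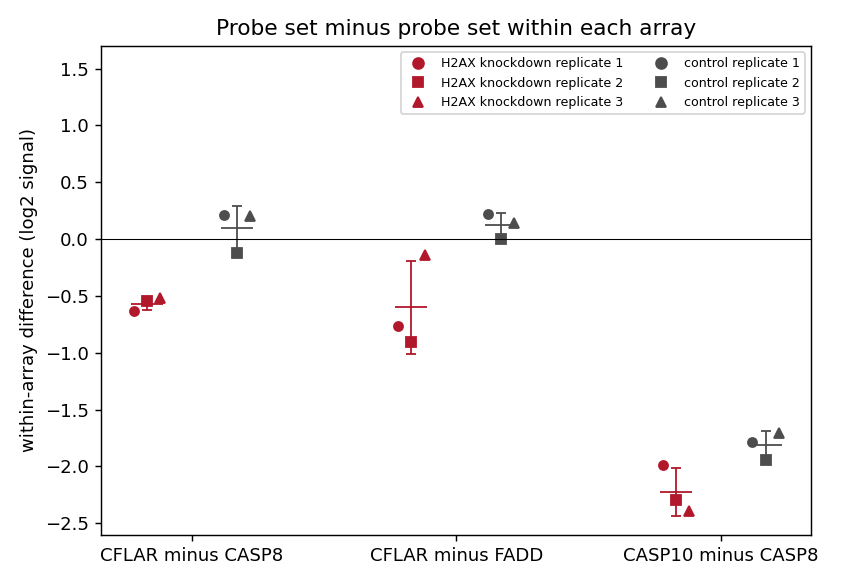
Difference between the log2 signals of 2 probe sets in the same array (vertical axis) for 3 pairs of genes, with knockdown-labelled arrays in red at the left and controls in grey, and the mean and SD over 3 arrays. For CFLAR minus CASP8 the red points lie between −0.63 and −0.52 and the grey points between −0.12 and 0.22.

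Among the receptors, none separated the groups. FAS, the receptor of Fas ligand, gave 4.71, 5.02 and 4.53 in the arrays labelled knockdown and 5.41, 4.995 and 5.15 in controls. The overlap came from knockdown-labelled replicate 2, which was just above control replicate 2. The difference was −0.43 ± 0.18 (SE), or 0.74 of the control signal (95% interval −0.82 to −0.04, limma adjusted p = 0.379), where genes of like brightness had a median of −0.15.

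TNFRSF10A, which encodes TRAIL receptor 1 with its death domain, gave 4.54, 5.06 and 4.93 in the arrays labelled knockdown and 5.51, 5.004 and 5.25 in controls. The extremes were replicate 1 of each group, and replicate 2 of the arrays labelled knockdown was above replicate 2 of the controls. The difference was −0.41 ± 0.19 (SE), and its 95% interval ran from −0.82 to −0.0017 (limma adjusted p = 0.411). It was −0.26 without knockdown-labelled replicate 1, a factor of over 1.5.

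TNFRSF10B, which encodes TRAIL receptor 2 with its death domain, was the brightest of the 9 relative to all genes, at percentile 97.2. It gave 6.48, 7.01 and 7.03 in the arrays labelled knockdown and 7.28, 6.97 and 7.19 in controls. Knockdown-labelled replicate 1 was the lowest array, and the other two of its group lay within the range of the controls. The difference of −0.31 (95% interval −0.71 to 0.10, limma adjusted p = 0.514) was close to the median of −0.32 for genes of like brightness, and it was −0.13 without that array.

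TNFRSF10D encodes a decoy receptor, which binds TRAIL but has a truncated death domain. It gave 6.14, 6.38 and 6.15 in the arrays labelled knockdown and 6.45, 6.32 and 6.52 in controls, with replicate 2 of the arrays labelled knockdown inside the control range. The difference was −0.21 (95% interval −0.55 to 0.14, limma adjusted p = 0.606), against a median of −0.32 for genes of like brightness. Within the arrays, TNFRSF10D minus the mean of TNFRSF10A and TNFRSF10B was 0.63, 0.35 and 0.17 in the arrays labelled knockdown and 0.05, 0.34 and 0.31 in controls, so the groups overlapped. The probe set shared by TNFRSF10C, a decoy receptor without an intracellular tail, and LOC254896 gave 2.63, 2.94 and 2.97 in the arrays labelled knockdown and 2.86, 2.99 and 3.08 in controls, and it was not tested as TNFRSF10C.

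TNFSF10, the gene of the ligand TRAIL, was dim in every array, at percentile 19.9 of mean signal. It gave 2.66, 2.61 and 2.65 in the arrays labelled knockdown and 2.66, 2.52 and 2.51 in controls. The difference was 0.08 (95% interval −0.25 to 0.40, limma adjusted p = 0.859), and genes of like brightness had a median of 0.11. At such a signal a change in the ligand's RNA would be hard to see, and these values do not show whether it was expressed.

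The differences of CFLAR, CASP10, FAS and TNFRSF10A were below 0 in every alternative run in which the gene was present. That of CFLAR ran from −0.86 to −0.56 over 14 alternatives, and it passed the threshold in 1 of them, with array weights (−0.70, limma adjusted p = 0.0469; 0.137 to 0.928 in the other 13). In that setting control replicate 3 had a weight of 5.03 and the other arrays 0.41 to 1.22, and 155 genes were lower and 36 higher past the threshold. That of CASP10 ran from −0.56 to −0.37 over 13 alternatives (limma adjusted p 0.077 to 0.928), and it was −0.52 both after quantile normalization and after cyclic loess, which bring the arrays to like distributions. Under the same 2 settings FAS was at −0.30 and −0.29 and TNFRSF10A at −0.29 and −0.26. TNFRSF10B shrank to −0.06 and −0.03 there, and TNFRSF10D turned to 0.03 and 0.06. The count of 4 genes at an unadjusted p under 0.05 was 2 without knockdown-labelled replicate 1 or 3, and 1 without control replicate 1 or 3. Without control replicate 3 the differences were about as large (CFLAR −0.70, CASP10 −0.44, FAS −0.45 and TNFRSF10A −0.42), while without control replicate 1 they were −0.58, −0.37, −0.32 and −0.28 in the same order. The number of all genes at an unadjusted p under 0.05 in limma was 1380 and 944 in these fits, against 2240 with all arrays.

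**Figure D4:**
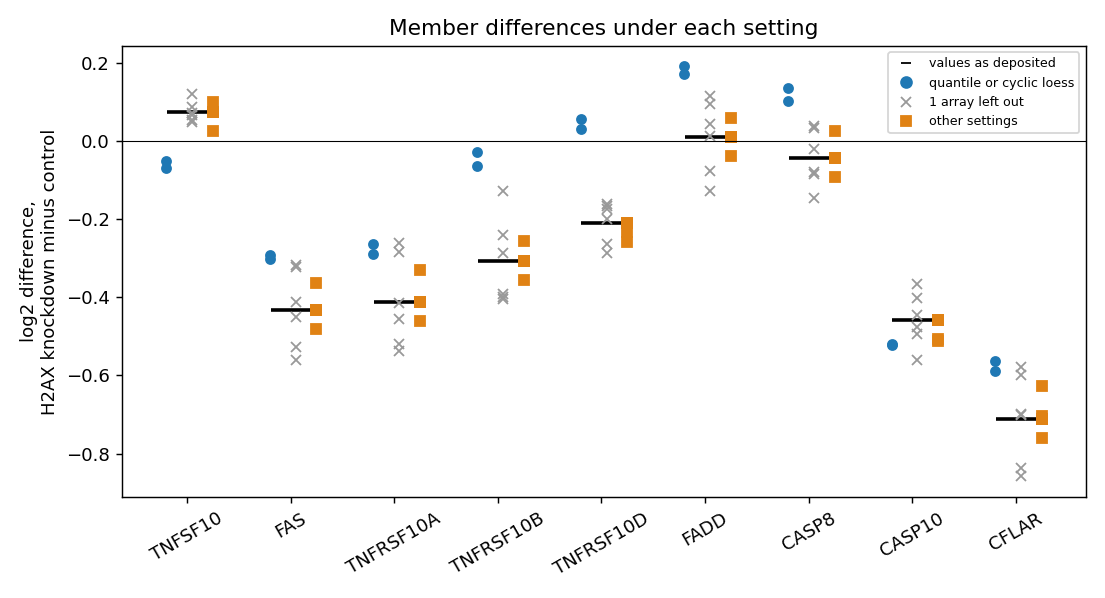
Log2 difference, knockdown-labelled minus control (vertical axis), of each gene under the deposited values (black bar), quantile normalization or cyclic loess (blue), each array left out in turn (grey crosses) and the other settings (orange). CFLAR stays between −0.86 and −0.56 and CASP10 between −0.56 and −0.37, while CASP8, FADD, TNFRSF10D and TNFSF10 have points on both sides of 0.

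Of 44 other genes of the receptor pathway, 38 had a single-gene probe set, and 0 passed the threshold in limma in either direction. At an unadjusted p under 0.05, 9 were lower and 0 higher, against 8.38% lower and 3.78% higher over all genes, and the median was −0.14, against −0.01 over all genes. These values over all genes take no account of brightness, and the list was not counted again after quantile normalization or cyclic loess. The groups did not overlap for 10 of the 38 downwards and 1 upwards, against 9.82% and 7.17% of all genes. The 4 ligands and 6 receptors measured held 0 of these 9. Adaptors and complex members held 2 of 9 measured, ubiquitin regulators 2 of 8, inhibitors of receptor signalling 1 of 3, and genes acting downstream of caspase-8 held 4 of 8.

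PEA15, a further death effector domain protein that binds FADD and caspase-8, had the smallest p of the 38. It gave 6.23, 7.07 and 7.06 in the arrays labelled knockdown and 7.83, 7.40 and 7.70 in controls, with no overlap (difference −0.86 ± 0.23, SE, limma adjusted p = 0.273). PEA15 was bright, and genes of like brightness had a median difference of −0.32. DEDD and DEDD2, which also encode death effector domain proteins, had differences of −0.09 and −0.30 (limma adjusted p = 0.845 and 0.496). DIABLO, the mitochondrial protein that relieves caspases of their inhibitors, gave 4.399, 4.81 and 4.57 in the arrays labelled knockdown and 5.28, 4.97 and 5.37 in controls (−0.61 ± 0.18, SE, limma adjusted p = 0.279). CUL3, the scaffold of a ubiquitin ligase that modifies caspase-8 at activated receptors, gave 5.11, 5.37 and 5.76 in the arrays labelled knockdown and 6.20, 5.88 and 5.82 in controls (−0.56 ± 0.19, SE, limma adjusted p = 0.322). In both genes all knockdown-labelled arrays were below all controls. Genes as bright as DIABLO and CUL3 had median differences of −0.15 and −0.23. In the other direction the smallest p values were those of CASP8AP2, a caspase-8-binding protein of histone RNA processing (0.37, limma adjusted p = 0.423), the executioner caspase gene CASP6 (0.28, 0.497) and FAIM2, an inhibitor of Fas signalling (0.26, 0.536). CASP6 gave 3.77, 3.47 and 3.47 in the arrays labelled knockdown and 3.23, 3.29 and 3.36 in controls, with no overlap. Genes as bright as CASP8AP2, CASP6 and FAIM2 had median differences of 0.11, 0.02 and −0.0005.

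**Figure D5:**
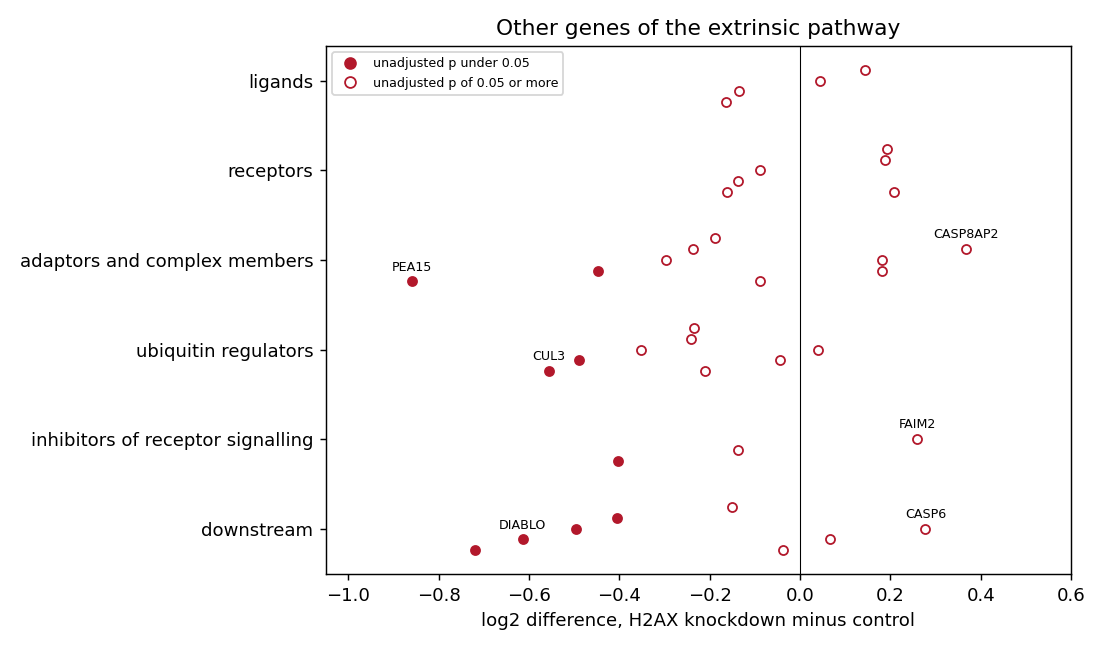
Log2 difference, knockdown-labelled minus control (horizontal axis), of 38 other genes of the pathway, by role (vertical axis, points staggered), filled where the unadjusted p was under 0.05. All 9 filled points lie left of 0, with PEA15 at −0.86 the farthest.

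The genes whose log2 signal was most like that of CFLAR over the 6 arrays were RNF167 (Pearson r = 0.999), EIF3F (0.999) and STAMBP (0.997). For CASP8 they were BET1 (0.989), PIP4K2A (0.988) and KLHL9 (0.988). For FAS they were CNIH4 (0.998), PCBD1 (0.996) and GID4 (0.992), and for TNFRSF10B they were INTS14, NTPCR and ATXN2 (0.9998, 0.997 and 0.997). With 18416 candidates and 6 arrays that share the shift with brightness, values this close to 1 are a description alone.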

How the data were processed

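RNA of 6 samples was hybridised to Affymetrix arrays as biotinylated cRNA, per the labels' protocols. The deposited log2 signals were made with RMA by the authors, per the submitters' processing notes; its version was not stated. They ran from 0.611 to 13.2, from which the log2 scale was taken. RMA corrects for background, is meant to bring arrays to a common scale, and shrinks differences where probe sets are dim. These 6 arrays still differed in SD over all probe sets, from 1.6 in knockdown-labelled replicate 1 to 1.855 in control replicate 1. Their medians ran from 3.382 in control replicate 1 to 3.531 in knockdown-labelled replicate 1. The values were thus not of equal distribution, and the reason was not tested. Probe sets (33297) were named through platform annotation, which can be old: 19460 had 1 gene, 1754 several and 12083 none. Genes with several probe sets took the brightest. The 18417 genes were tested with limma 3.58.1 (R 4.3.3), knockdown-labelled minus control, 2-sided, with no filter, and called at a p of 0.05 after Benjamini-Hochberg adjustment across them. The procedure was tested on simulated data without a shift by brightness and with differences larger than those of the members. It does not show how well differences of the members' size are found. Precision is limited by the number of arrays. The members, lists and alternatives were chosen with earlier results of these data known. Named were the 10 genes, H2AX, the 3 pathway genes of smallest p per direction, the 3 genes most like CFLAR, CASP8, FAS and TNFRSF10B, and markers of cell identity. A contrast planned with TNFRSF10C used TNFRSF10D alone.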

Additional observations from a re-analysis of the deposited data

How the results depend on the processing

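The alternatives were the replicate number as a block, quantile normalization, array medians subtracted, cyclic loess (5 iterations), averaged probe sets per gene, a filter at the median signal (which left out CASP10 and TNFSF10), robust variance with an intensity trend, array weights, and leaving out each array. The genes past the threshold, 5 lower and 1 higher, were in that count 3 and 0 with the replicate block, 0 and 0 after quantile normalization or cyclic loess (in limma, 1495 and 1511 genes at an unadjusted p under 0.05), 3 and 0 with probe sets averaged, 14 and 2 with the filter, and 155 and 36 with array weights; 0 were higher with medians subtracted. Leaving out 1 array gave 0 to 8 lower and 0 to 1 higher. The 4 members lower at an unadjusted p under 0.05 were 2 after quantile normalization, after cyclic loess and with the filter, and 1 to 4 with 1 array left out, with 0 higher throughout. The members' median of −0.31 was −0.069 after quantile normalization, −0.052 after cyclic loess, and −0.40 to −0.17 with 1 array left out. H2AX stayed between 0.01 and 0.28. Of 124 values of members under alternatives, 111 kept direction and side of the threshold, 1 gained a call and 12 turned sign, though most were uncalled throughout. Under quantile normalization and cyclic loess these were TNFRSF10D (0.031 and 0.056), TNFSF10 (−0.069 and −0.052) and CASP8 (0.10 and 0.14). CASP8 also read 0.027 with array weights and, with 1 array left out, −0.15 to 0.039, above 0 when that array was replicate 1 of either group. FADD read −0.038 with medians subtracted and, with 1 array left out, −0.13 to 0.12, below 0 when that array was replicate 2 of either group. The cause was not tested. Same-numbered arrays of the groups did not deviate together (correlations of −0.31, −0.03 and 0.07 over genes for numbers 1, 2 and 3), so the numbers were not taken as pairs. With the replicate block CFLAR was at −0.71 (limma adjusted p = 0.401), and no member passed.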
